A study of Mus musculus with 47 samples.

Results

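The clustered protocadherins were examined in striatal RNA from 47 mice aged 6 months. Members were the rows of the count table whose gene name is that of an alpha, beta or gamma cluster protocadherin, which gave 59 of 48795 rows. Of these, 58 lie in the annotated locus, with 14 in the alpha, 22 in the beta and 22 in the gamma cluster, and 57 passed the filter on low counts. The remaining members were Pcdhgb8, an annotated polymorphic pseudogene with a median of 4 counts, and a second row of that name with 0 counts in every library and no place in the annotation. Q140 mice carry a knock-in Htt allele with an expanded CAG repeat and model Huntington's disease. The other variable was the Ccdc82 genotype, so that the groups were wild type, Q140, Ccdc82+/-, Q140 Ccdc82+/- and Ccdc82-/- with 8 mice each, and Q140 Ccdc82-/- with 7. Each group held both sexes, and the strain label was C57BL throughout. All Q140 groups were labelled heterozygous for the knock-in. The design of the Ccdc82 allele was not given in the sources used here.

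Clustered protocadherins are cadherin-related adhesion proteins on the surface of neurons. In the alpha and gamma clusters each member has its own first exon, which holds the extracellular part, and is spliced to constant exons shared by the whole cluster, while each beta member is a gene of a single exon. In textbook accounts, single neurons choose a few of the alternate alpha, beta and gamma promoters at random with the help of CTCF, cohesin and DNA methylation, whereas the C-type members at the ends of the alpha and gamma clusters are used more uniformly. The chosen set of proteins gives a neuron a recognition code by which its branches bind and then avoid one another.

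All placed members lie on the plus strand of chromosome 18 in GRCm38. The alpha cluster spans 36930184 to 37187661, the beta cluster 37264938 to 37524479 and the gamma cluster 37661793 to 37841873. The median member had 46.4% of its exon sequence in no other annotated gene on the same strand in the alpha cluster, 55.3% in the gamma cluster and 100% in the beta cluster. The lengths implied by the deposited FPKM values were those of all exons together, the shared constant exons included, for 58 of 58 members within 0.5 bases. How reads on shared exons were assigned was not given in the sources used here, and 4 annotated read-through genes that run over several members (Gm37013, Gm37388, Gm38182 and Gm42416) had 0 counts in all 47 libraries. Pcdha4 had the least sequence of its own, 494 bases, since the annotation gives part of its first exon to Gm42416 as well. Exons of Pcdhga4 and Pcdhgb1, of Pcdhga8 and Pcdhgb4, and of Pcdhb21 and Pcdhb22 overlap in the annotation, so how reads were split within these pairs is uncertain. The annotated first exon of Pcdhgc5, 5567 bases long, overlaps exons of every other gamma member. How far the counts of Pcdhgc5 are its own is therefore uncertain, which limits its level and the C-type share of the gamma cluster below. An antisense gene, Gm26672, covers all the private sequence of Pcdhga10 and part of that of Pcdhgb7, Pcdhga11 and Pcdhga12, and had a median of 126 counts against 1037 for Pcdhga10. Whether counting used the strand was not given, so reads of these members and of Gm26672 may be mixed, and the same holds for Pcdhgc3 with BC037039 and Pcdhb12 with Gm37446. It also holds for Pcdha4, Pcdha6, Pcdha11, Pcdha12, Pcdhga1, Pcdhga7 and Pcdhga8, whose private sequence is covered in part by other antisense genes. Of the 4606 private bases of Pcdha11, 1268 were clear of antisense exons. Of the 50-base words in a member's first exon or beta gene, a median of 14.2% occurred in another member for the alpha, 4.26% for the beta and 0.73% for the gamma cluster, so more of a read's possible sources are shared among the alpha members. A pair of rows carried a name other than that of their place. ENSMUSG00000007440, listed as Pcdha11, lies where RefSeq has Pcdha10 and is called Pcdha10 here, and ENSMUSG00000023036, listed as Pcdhga8, is Pcdhgc4 in GENCODE M21 and is called Pcdhgc4 here.

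Depth lay between 41.3 and 61.7 M counts (1 M is 1e6). Ccdc82, the targeted gene, had 12.01 ± 0.772 CPM (counts per 1e6 counts; SD, n = 8) in wild type, 8.42 ± 0.518 (n = 8) in Ccdc82+/- and 4.57 ± 0.666 (n = 8) in Ccdc82-/-, so its mRNA was lowered but still counted in the libraries labelled Ccdc82-/-. Markers of the striatum's principal cells, the medium spiny neurons, were present in all groups. Of 10 such markers, 9 fell and 1 rose in Q140 against wild type, and their summed level was 6622 to 8148 CPM in Q140 and 10689 to 12279 CPM in wild type, with none of them at 0. The summed level of 8 astrocyte markers was 3644 to 4042 CPM in Q140 and 4104 to 4515 in wild type, again without overlap, and that of 7 cortical excitatory neuron markers was 20.3 to 22.9 CPM in Q140 and 17.6 to 26.6 in wild type. The part of these differences in the results that follow was not tested, and in bulk tissue fewer cells of a type and less RNA per cell cannot be told apart. One library, Ccdc82-/- male 1, held 357.6 CPM of choroid plexus and ependyma markers, where the highest of the others held 88.5. Without it the counts of members called on the Ccdc82-/- background were 36 higher and 5 lower, as with it.

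Levels in wild type differed widely between members when each was divided by its private exon length. The gamma cluster stood highest, with a median over its 21 tested members of 7.86 CPM per kb and a range from 2.25 to 29.4. The beta cluster had a median of 2.48 and a range from 0.27 to 4.79 CPM per kb, and the alpha cluster a median of 0.87 and a range from 0.33 to 10.7.

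**Figure D1:**
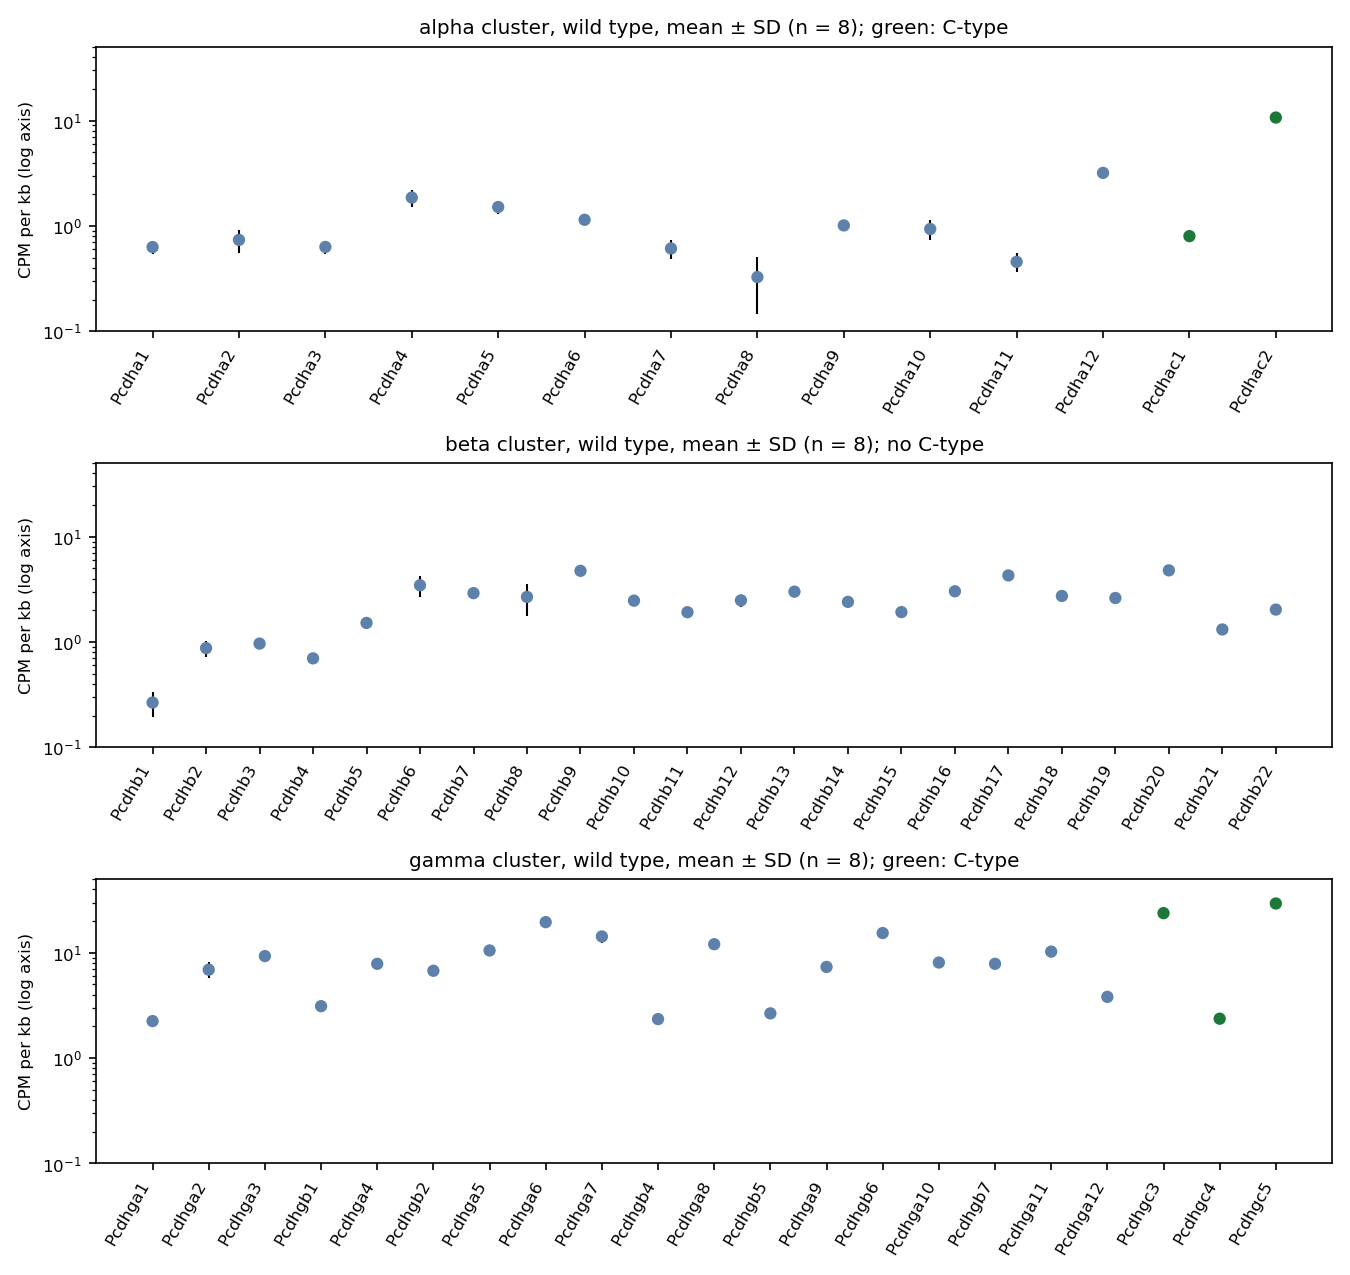
Level of each tested member in wild type striatum, in CPM per kb of private exon sequence on a log axis, in chromosomal order; points are means and bars the SD over 8 libraries. The C-type members Pcdhgc5, Pcdhgc3 and Pcdhac2 stand at 29.4, 23.8 and 10.7 CPM per kb, and Pcdhb1 is lowest at 0.27.

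The order of levels began with 2 C-type members. Pcdhgc5, known to bind GABA-A receptor subunits, had 29.4 ± 0.769 CPM per kb (SD, n = 8), and Pcdhgc3, which is known to promote dendrite branching, had 23.8 ± 1.15. Pcdhga6 was the highest alternate member at 19.5 ± 1.36 CPM per kb. These 3 members were separated from each other and from the next in order, Pcdhgb6, without overlap between wild type libraries. In the alpha cluster the highest level was that of the C-type member Pcdhac2, known for its part in the spacing of serotonergic axons, with 10.7 ± 0.378 CPM per kb. The other C-type members were low: Pcdhgc4, known to be needed for the survival of interneurons, had 2.37 CPM per kb and Pcdhac1 0.80. At the bottom were Pcdha8 with 0.33 ± 0.181 and Pcdhb1 with 0.27 ± 0.0712 CPM per kb. Of 56 pairs of neighbours in this order, 52 had overlapping libraries, so most members cannot be ranked against the next one. The first genes of the clusters were low. Pcdhb1 (0.27 CPM per kb) and Pcdhga1 (2.25) were the lowest of their clusters, and Pcdha1 (0.63) was the eleventh of 14. The spread between wild type libraries (CV) had a median of 13.9% in the alpha, 10.1% in the beta and 7.26% in the gamma cluster.

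In Q140 against wild type, which asks what the expanded Htt allele does to striatal RNA, most beta members and most alternate alpha members rose. In the gamma cluster most members were called in neither direction. With edgeR's quasi-likelihood test at an adjusted p under 0.05, 33 of 57 members rose and 2 fell. Over all genes tested, 18.2% rose and 16.5% fell. The median log2 fold change was 0.44 over the 14 alpha, 0.46 over the 22 beta and 0.00 over the 21 gamma members, beside -0.00051 over all 19193 genes. By cluster, 9 of 14 alpha members rose and 0 fell, 19 of 22 beta members rose and 0 fell, and 5 of 21 gamma members rose and 2 fell. All 8 Q140 libraries lay above all 8 wild type libraries for 19 members (3 alpha, 12 beta and 4 gamma), where 4.7% of all genes did so, and below them for 0 members, where 5.07% of all genes did so.

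**Figure D2:**
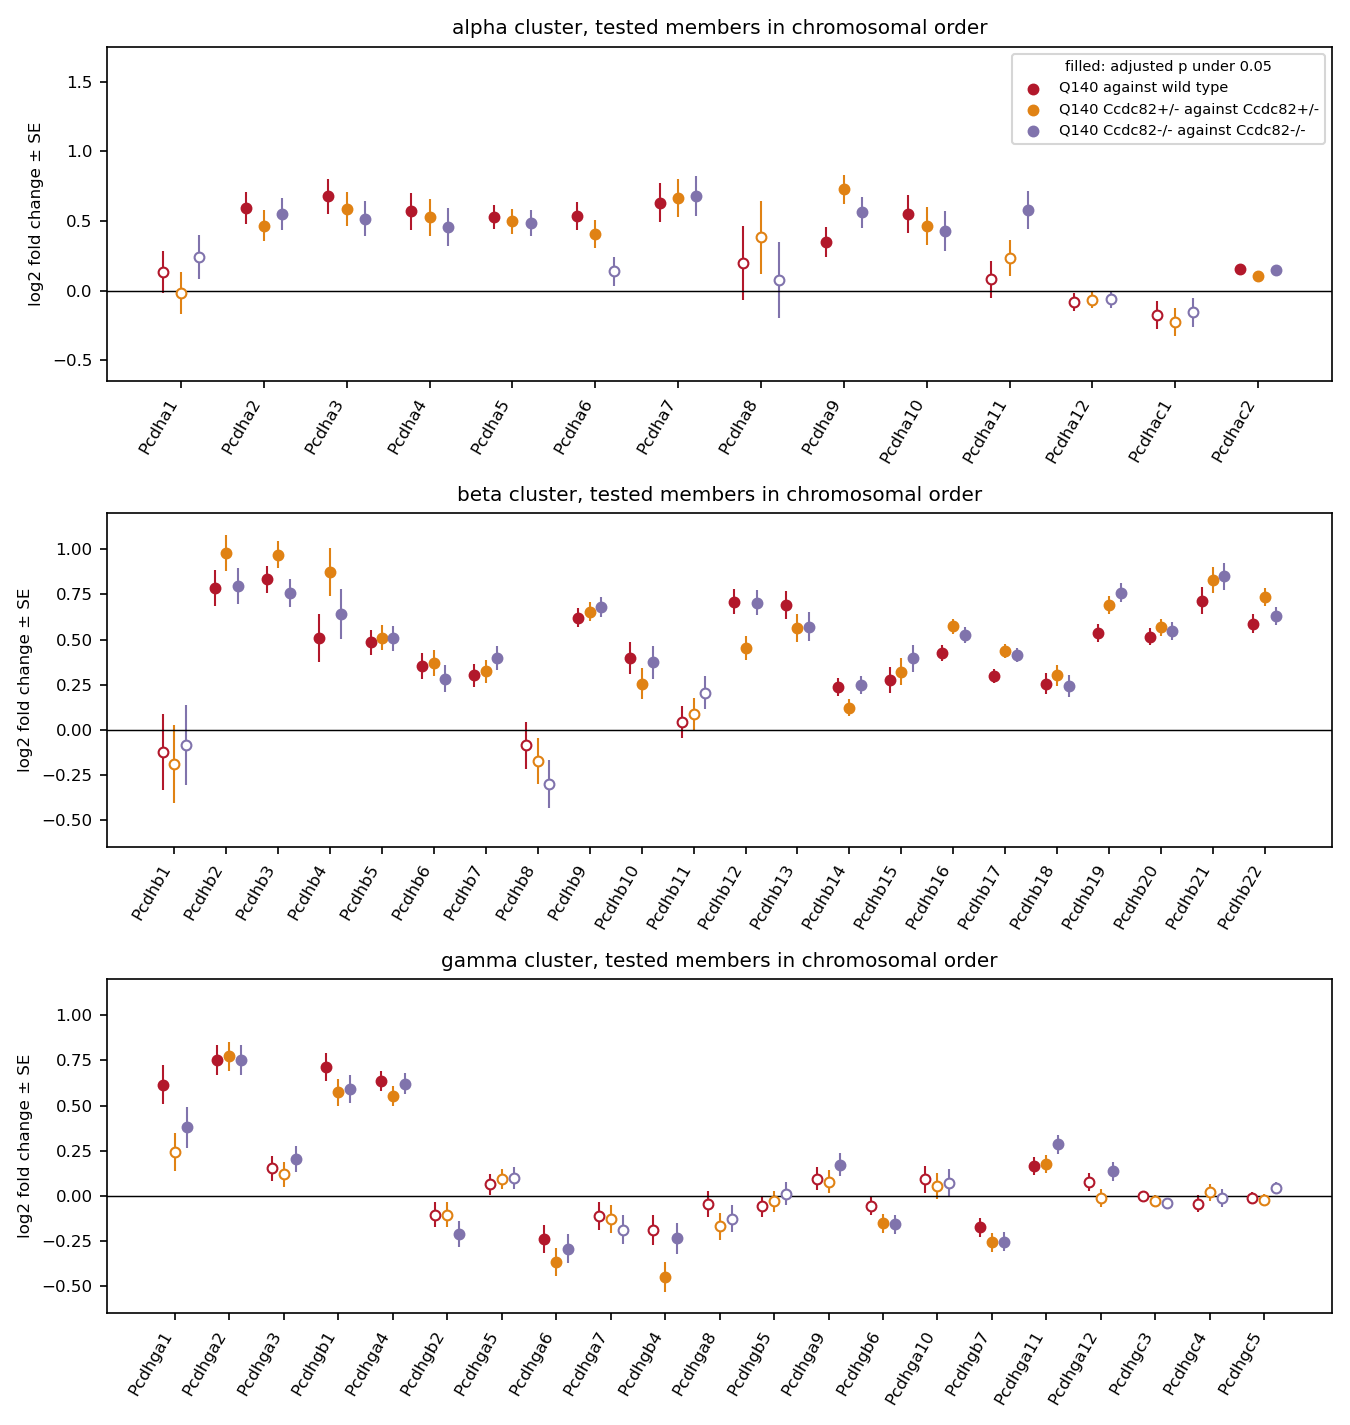
Log2 fold change with its SE for the 57 tested members in chromosomal order within the alpha, beta and gamma clusters, in Q140 against control on the 3 Ccdc82 backgrounds; filled points have an adjusted p under 0.05. Beta members other than Pcdhb1 and Pcdhb8 lie above 0 on every background, Pcdhb11 without passing the threshold. In the gamma cluster the largest rises lie among the first 5 members.

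In the alpha cluster, 8 of the 12 alternate members rose, with a median over the 12 of 0.53 on the log2 scale. Pcdha3 had 1.34, 1.49 and 1.89 CPM as the lowest, median and highest wild type library and 1.99, 2.39 and 3.42 in Q140. The groups did not overlap, and the log2 fold change was 0.68 ± 0.12 (SE; adjusted p = 1.6e-05, edgeR). Pcdha5 had 2.98, 3.44 and 4.35 CPM in wild type and 3.82, 5.35 and 5.94 in Q140, so the ranges overlapped at their edges. Its log2 fold change was 0.53 ± 0.09 (adjusted p = 3.4e-06). Pcdha2 rose by 0.59 ± 0.11 and Pcdha6 by 0.53 ± 0.10. The first member, Pcdha1, had 1.21, 1.56 and 1.92 CPM in wild type and 1.25, 1.58 and 2.76 in Q140, with a log2 difference of 0.14 ± 0.15 (adjusted p = 0.52). Pcdha8, the least abundant, had a log2 difference of 0.20 ± 0.26 (adjusted p = 0.60), with under 1 CPM on average in both groups. The alternate members not called in this comparison were Pcdha1, Pcdha8, Pcdha11 and Pcdha12, listed after their values were seen.

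Beta members are anchored at the membrane like the others but lack the constant cytoplasmic part. From Pcdhb2 to Pcdhb22, 19 of 21 members rose, with a median log2 fold change of 0.49 and a range from -0.09 to 0.83. Pcdhb3 had the largest log2 fold change of the 57 members. It had 3.12, 3.60 and 4.23 CPM as the lowest, median and highest wild type library and 5.20, 6.44 and 7.86 in Q140, a difference of 0.83 ± 0.07 (adjusted p = 5.4e-13, edgeR), or 1.78-fold. Pcdhb22, the last of the cluster, had 11.8, 12.5 and 13.4 CPM in wild type and 16.9, 18.9 and 21.4 in Q140, a rise of 0.59 ± 0.05 (adjusted p = 1.3e-13). The lowest Q140 library of each exceeded the highest wild type library.

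Pcdhb9 had 13.4, 14.5 and 15.6 CPM in wild type and 19.7, 22.8 and 23.5 in Q140, again without overlap, and rose by 0.62 ± 0.05 (adjusted p = 1.5e-13). Pcdhb19 rose from 18.7 ± 1.2 to 27.1 ± 1.3 CPM (SD, n = 8 each). Pcdhb20, the highest beta member per length, rose from 17.1 ± 0.60 to 24.4 ± 1.5 CPM. The 3 members not called were Pcdhb1, Pcdhb8 and Pcdhb11, listed after their values were seen. Pcdhb1, the lowest per length of all members, had 0.40, 0.74 and 0.90 CPM in wild type and 0.16, 0.65 and 1.07 in Q140, with a log2 difference of -0.12 ± 0.21 (adjusted p = 0.70).

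**Figure D3:**
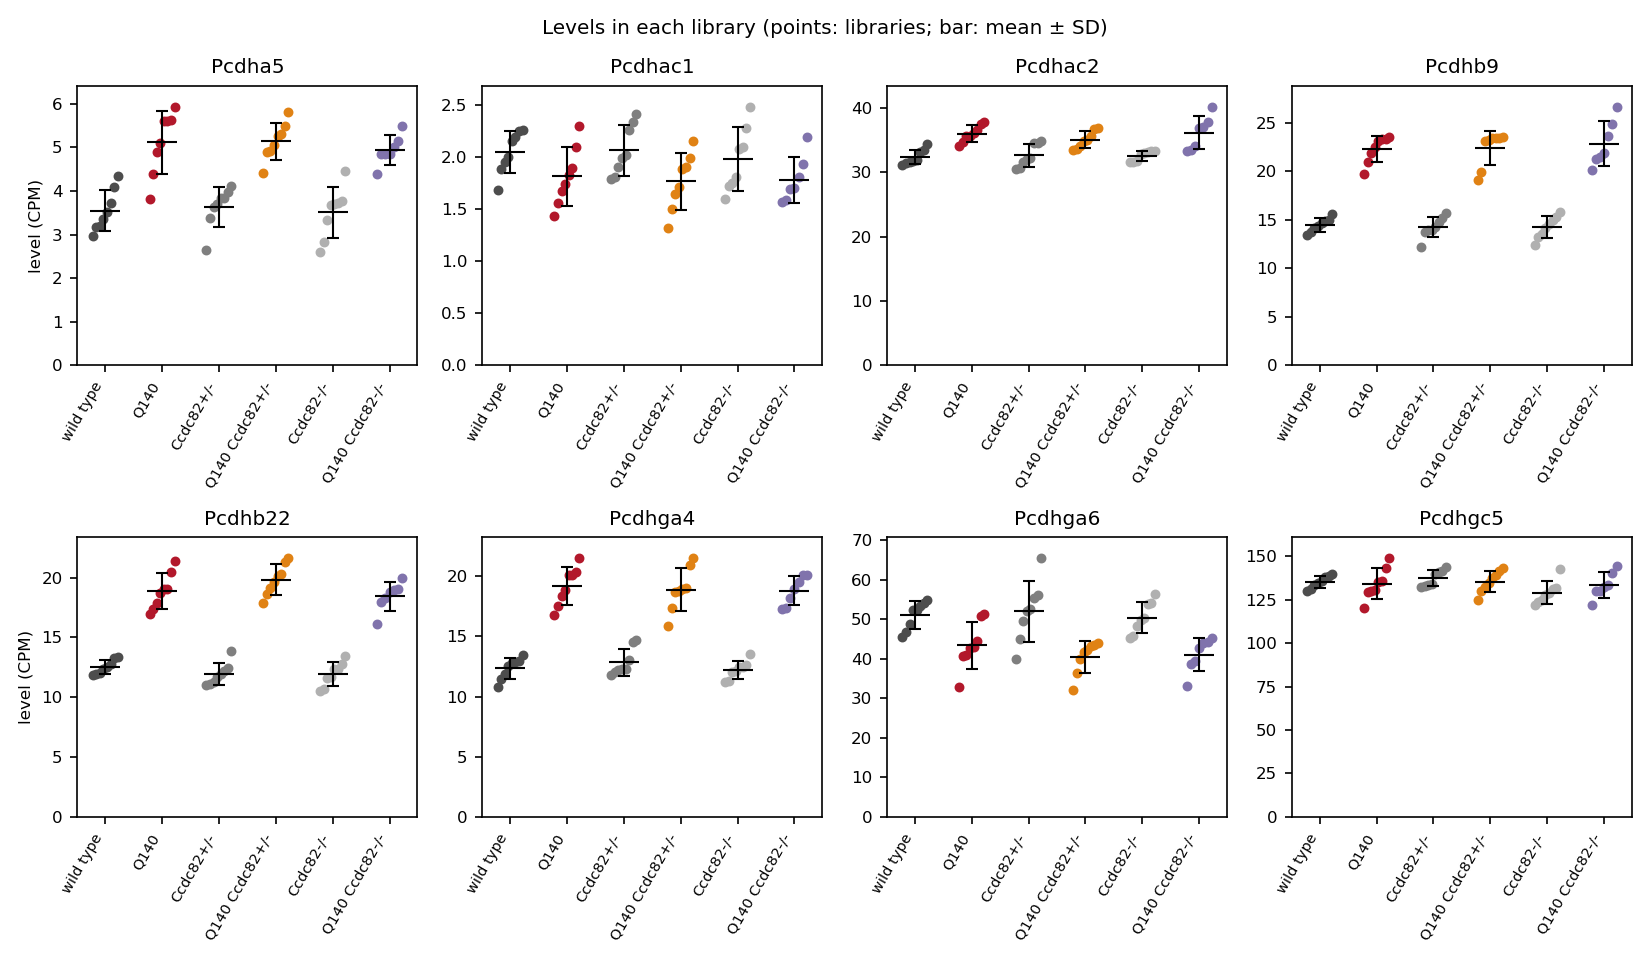
Level in CPM of 8 members in each of the 47 libraries by genotype, with mean and SD; grey points are groups without the Q140 allele. For Pcdhb9, Pcdhb22 and Pcdhga4 the Q140 groups lie above their controls without overlap, for Pcdhga6 they lie lower with overlap, and for Pcdhgc5 the groups overlap throughout.

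The gamma cluster mixes an A and a B subfamily along the chromosome. Of its 12 A members 4 rose and 1 fell, and of its 6 tested B members 1 rose and 1 fell. The 4 smallest p-values all belonged to the first 5 genes of the cluster. Pcdhga1 had 6.404, 6.97 and 8.53 CPM as the lowest, median and highest wild type library and 9.23, 10.7 and 14.4 in Q140, and rose by 0.62 ± 0.11 (adjusted p = 1.2e-05). Pcdhga2 had 14.9, 16.8 and 23.1 CPM in wild type and 25.1, 29.2 and 36.7 in Q140, and rose by 0.75 ± 0.08 (adjusted p = 4.6e-10). Pcdhgb1 rose by 0.71 ± 0.08, from 8.16 ± 1.0 to 13.4 ± 1.6 CPM (SD, n = 8 each). In these 3 members the groups did not overlap.

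Pcdhga4 had 10.8, 12.7 and 13.5 CPM in wild type and 16.8, 19.4 and 21.5 in Q140, a rise of 0.64 ± 0.06 without overlap (adjusted p = 2.0e-13). From the sixth gene, Pcdhgb2, to Pcdhga12, 13 alternate members were tested, with a median log2 difference of -0.06. Of these, 1 rose and 2 fell, where 18.2% and 16.5% of all genes did so. The first 5 genes had a median of 0.64, and 4 of the 5 rose. This division of the cluster was chosen after the values were seen and has no test of its own.

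Members that fell were in the gamma cluster. Pcdhga6, the alternate member with the highest level per length, had 45.5, 52.3 and 55.0 CPM as the lowest, median and highest wild type library and 32.8, 42.9 and 51.4 in Q140. The groups overlapped, and the log2 fold change was -0.24 ± 0.08 (adjusted p = 0.014, edgeR). Pcdhgb7 had 18.7, 20.7 and 21.3 CPM in wild type and 15.8, 18.2 and 19.8 in Q140, a log2 fold change of -0.17 ± 0.05 (adjusted p = 0.0068). With libraries scaled by total counts alone, neither passed (-0.18 for Pcdhga6 and -0.12 for Pcdhgb7), the median of all genes moved to 0.06, and 36 members rose and 0 fell, beside 5934 genes higher and 2134 lower of all tested instead of 3485 and 3170.

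Of the 5 C-type members, 1 rose and 0 fell, and the 95% intervals were narrow for the abundant ones. Pcdhgc5 had 130, 135 and 140 CPM as the lowest, median and highest wild type library and 120, 133 and 149 in Q140, with a log2 difference of -0.01 ± 0.03 and a 95% interval from -0.07 to 0.05. Pcdhgc3 had 80.4 ± 3.9 CPM in wild type and 80.2 ± 2.7 in Q140 (SD, n = 8 each), with a 95% interval of the log2 difference from -0.06 to 0.06. For Pcdhgc4 the log2 difference was -0.04 ± 0.05 and for Pcdhac1 -0.17 ± 0.10 (adjusted p = 0.54 and 0.19, edgeR). Pcdhac2 was the member that rose. It had 31.2, 31.9 and 34.4 CPM in wild type and 34.2, 35.9 and 37.9 in Q140, with the highest wild type library inside the Q140 range, and rose by 0.15 ± 0.03 (adjusted p = 1.6e-04), or 1.11-fold.

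Summed over members, the 22 beta genes together had 214 to 238 CPM in the wild type libraries and 274 to 337 in Q140, a ratio of means of 1.35 without overlap. The 12 alternate alpha members had 26.9 to 31.2 CPM in wild type and 33.9 to 39.4 in Q140, a ratio of 1.26 without overlap. The 18 tested alternate gamma members had 392 to 443 CPM in wild type and 390 to 469 in Q140, a ratio of 1.05 with overlap. The 5 C-type members had 251 to 266 CPM in wild type and 249.8 to 275.9 in Q140, a ratio of 1.01 with overlap. A sum is weighted toward its most abundant members, and no test was made on it.

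**Figure D4:**
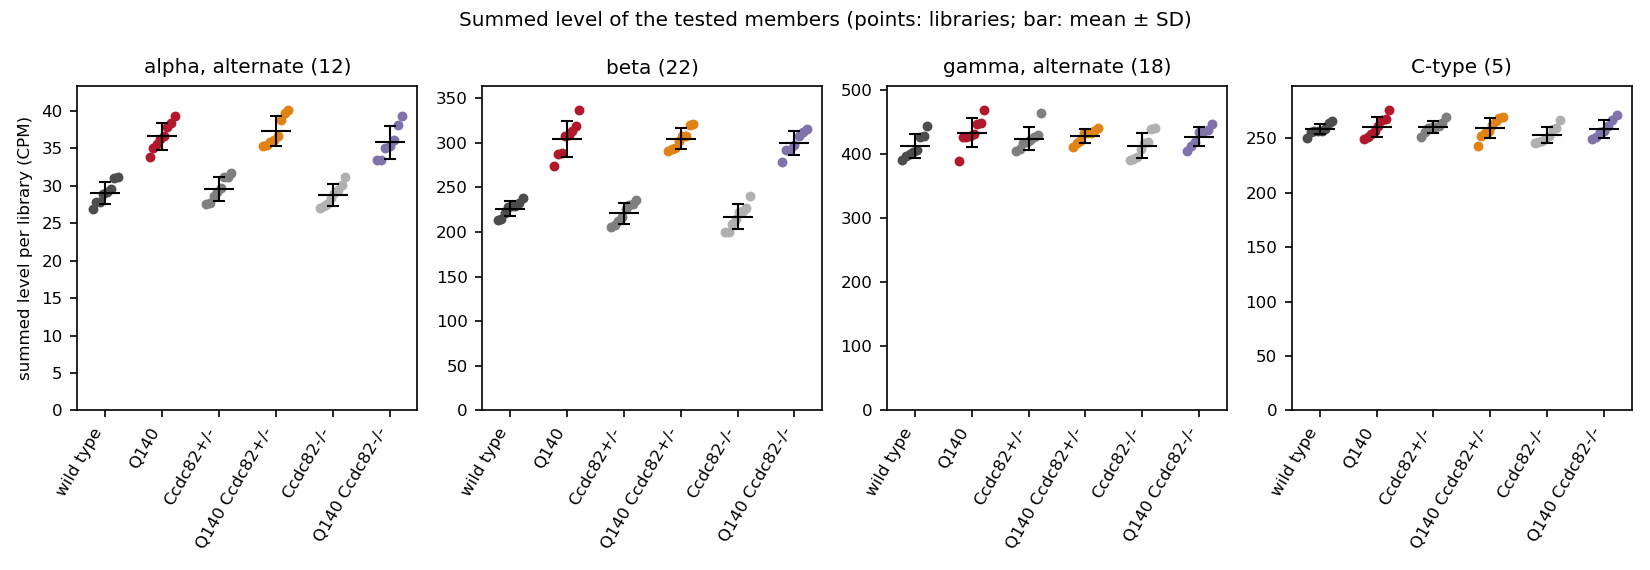
Summed CPM of the tested members of 4 sets in each library by genotype, with mean and SD; the number of members is in brackets and each axis starts at 0. The Q140 groups lie above their controls in the alternate alpha and the beta set and overlap them in the alternate gamma and C-type sets.

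The C-type members made up a smaller share of the alpha cluster on average in Q140, while their own summed level was not lower: 34.4 ± 1.22 CPM in wild type and 37.9 ± 1.19 in Q140 (SD, n = 8 each). As a share of the summed level per private kb, Pcdhac1 and Pcdhac2 made up 46.9% ± 1.49 (SD, n = 8) of the alpha cluster in wild type and 42.7% ± 1.57 in Q140. It was 46.6% ± 2.17 in Ccdc82+/- against 41.8% ± 1.68 in Q140 Ccdc82+/-, and 46.9% ± 0.955 in Ccdc82-/- against 43.5% ± 1.85 (n = 7) in Q140 Ccdc82-/-. In the gamma cluster the 3 C-type members made up 27.0% ± 0.994 in wild type and 25.7% ± 1.02 in Q140, a difference near the spread between libraries. The ranges of wild type and Q140 libraries overlapped for both clusters, from 44.4 to 49.0% against 40.1 to 44.9% in the alpha cluster.

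Position along the cluster was set beside the fold change in Q140. The rank correlation between the order of the tested members and their log2 fold change was -0.60 over 14 alpha, 0.06 over 22 beta and -0.32 over 21 gamma members in Q140 against wild type. On the Ccdc82+/- background it was -0.45, 0.08 and -0.37, and on the Ccdc82-/- background -0.35, 0.14 and -0.35. These are descriptions over genes that share libraries, with no test. In the alpha cluster the last 3 genes, Pcdha12, Pcdhac1 and Pcdhac2, had log2 differences of -0.08, -0.17 and 0.15. The rank correlation of the fold change with the wild type level per length was -0.10, -0.07 and -0.21 in the alpha, beta and gamma clusters.

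Q140 was also compared with its control in other mice that lacked 1 or both intact copies of Ccdc82, and the 3 comparisons share no library. On the Ccdc82+/- background 32 of 57 members rose and 4 fell, where 18.4% of all genes rose and 16.7% fell. On the Ccdc82-/- background 36 rose and 5 fell, where 17.5% of all genes rose and 15.7% fell. The 19 beta members that rose were the same on all 3 backgrounds, with the call of Pcdhb14 on Ccdc82+/- near the threshold (0.12 ± 0.05, adjusted p = 0.041, edgeR). That call was not made by DESeq2, with RLE size factors, without the filter on low counts, without the sex term, with plate column as a factor, with only the groups compared or in females only. In the alpha cluster 8 members rose on all 3, and in the gamma cluster 4, Pcdhga2, Pcdhgb1, Pcdhga4 and Pcdhga11. Across the 57 members Pearson's r between the log2 fold changes was 0.93 for wild type with Ccdc82+/-, 0.92 for wild type with Ccdc82-/- and 0.94 for Ccdc82+/- with Ccdc82-/-. In the same order, r was 0.87, 0.73 and 0.80 within the alpha cluster. It was 0.91, 0.94 and 0.93 within the beta and 0.94, 0.96 and 0.97 within the gamma cluster. Over all 57 members the median absolute difference between backgrounds was 0.07 to 0.08 on the log2 scale. The same counts and correlations over all genes are not given here, so this likeness is not shown to be particular to the members.

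The cluster medians were close on each background. For alpha, beta and gamma the median log2 fold change was 0.44, 0.48 and -0.01 on Ccdc82+/- and 0.44, 0.52 and 0.04 on Ccdc82-/-, beside 0.01 and 0.0069 over all genes. All Q140 Ccdc82+/- libraries lay above the Ccdc82+/- libraries for 19 members and below for 1, Pcdhgb4, where 4.52% and 5.76% of all genes did so. On the Ccdc82-/- background 18 members lay above and 0 below, where 4.12% and 5.36% of all genes did so. With libraries scaled by total counts alone the splits were 36 higher and 3 lower on Ccdc82+/- and 39 higher and 2 lower on Ccdc82-/-. Over all genes these were 6524 higher and 1936 lower instead of 3524 and 3202, and 6161 and 1861 instead of 3360 and 3007, with the median of all genes moved to 0.08 and 0.07.

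Pcdhb3 had 3.08, 3.61 and 3.87 CPM as the lowest, median and highest Ccdc82+/- library and 6.12, 6.77 and 7.94 in Q140 Ccdc82+/-, a rise of 0.97 ± 0.07 (adjusted p = 2.9e-15, edgeR). On Ccdc82-/- it had 3.21, 3.53 and 4.24 CPM against 5.20, 5.85 and 7.60, a rise of 0.76 ± 0.08 (adjusted p = 2.8e-11). The groups were apart on both backgrounds. Pcdhga2 rose by 0.77 ± 0.08 and 0.75 ± 0.08 on the 2 backgrounds, Pcdhga4 by 0.55 ± 0.06 and 0.62 ± 0.06, and Pcdha5 by 0.50 ± 0.09 and 0.49 ± 0.09.

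Pcdhac2 rose by 0.10 ± 0.03 on Ccdc82+/- and by 0.15 ± 0.03 on Ccdc82-/-, and the other 4 C-type members did not pass on either, except that Pcdhgc5 passed on Ccdc82-/- with total counts alone (0.11). The call of Pcdhac2 on Ccdc82+/- was lost within each sex, and that on Ccdc82-/- in males only. Pcdha6 passed on wild type and Ccdc82+/- and not on Ccdc82-/-, where it had 2.50, 2.63 and 3.60 CPM in the controls and 2.54, 3.14 and 3.56 with Q140, a log2 difference of 0.14 ± 0.10 (adjusted p = 0.33). Pcdhga1 passed on wild type and Ccdc82-/- and not on Ccdc82+/-, where its log2 difference was 0.24 ± 0.11 (adjusted p = 0.072). With total counts alone Pcdhga1 passed there too (0.31), as it did in males only (0.47), and its call on Ccdc82-/- was lost in males only (0.25). Neither difference between backgrounds passed the interaction test. Pcdha11 had log2 differences of 0.08 ± 0.13 on wild type, 0.24 ± 0.13 on Ccdc82+/- and 0.58 ± 0.14 on Ccdc82-/-. Only the last passed (adjusted p = 6.8e-04, edgeR), and it was lost in males only (0.47). With total counts alone Pcdha11 passed on Ccdc82+/- too (0.31). Its interaction with Ccdc82-/-, 0.50 ± 0.19, did not pass (adjusted p = 0.998, edgeR).

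The same 2 gamma members fell on all 3 backgrounds. Pcdhga6 had 39.9, 52.4 and 65.5 CPM in Ccdc82+/- and 32.2, 42.0 and 44.0 in Q140 Ccdc82+/-, a log2 fold change of -0.37 ± 0.08, and -0.29 ± 0.08 on Ccdc82-/- (adjusted p = 1.8e-04 and 0.0036, edgeR). Pcdhgb7 had log2 fold changes of -0.26 ± 0.05 and -0.25 ± 0.05. The call of Pcdhga6 was lost in females only on wild type, Ccdc82+/- and Ccdc82-/- (-0.13, -0.29 and -0.29). That of Pcdhgb7 against wild type was lost within each sex (-0.19 in females, -0.16 in males). Pcdhgb4 fell on Ccdc82+/-, where it had 8.10, 8.95 and 10.6 CPM in the controls and 4.36, 7.09 and 7.96 with Q140, the 1 case in which all Q140 libraries were below their controls. Its log2 fold change there was -0.45 ± 0.08, against -0.23 ± 0.09 on Ccdc82-/- and -0.19 ± 0.08 (adjusted p = 0.075) against wild type. Pcdhgb6 fell by 0.15 on Ccdc82+/- and by 0.16 on Ccdc82-/- on the log2 scale, and Pcdhgb2 fell by 0.21 on Ccdc82-/-. The calls of Pcdhgb6 on both backgrounds, and those of Pcdhgb4 and Pcdhgb2 on Ccdc82-/-, were lost with total counts alone. Pcdhgb6 also lost its call within each sex on Ccdc82+/- and in males only on Ccdc82-/-. Those of Pcdhgb4 and Pcdhgb2 on Ccdc82-/- were also lost without the filter on low counts, with plate column as a factor and in females only (-0.08 for Pcdhgb4), and that of Pcdhgb4 with voom. On the Ccdc82-/- background, 5 members were lower with all libraries, and 3 were without Q140 Ccdc82-/- female 1, without Q140 Ccdc82-/- male 2 or without Q140 Ccdc82-/- male 3.

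Ccdc82 genotype alone made no member pass. In each of Ccdc82+/- against wild type, Ccdc82-/- against wild type, Q140 Ccdc82+/- against Q140 and Q140 Ccdc82-/- against Q140, 0 of 57 members passed in edgeR, DESeq2 or limma voom, and 0.00521% of all genes (1 gene) did in edgeR. At an unadjusted p under 0.05 the numbers of members were 3, 5, 1 and 1, or 5.26%, 8.77%, 1.754% and 1.754%, beside 3.27%, 4.19%, 5.74% and 3.71% of all genes. These comparisons share groups with each other. The smallest unadjusted p in Ccdc82-/- against wild type was that of Pcdhb19, with 18.7 ± 1.2 CPM in wild type and 16.4 ± 1.6 in Ccdc82-/- (SD, n = 8 each) and a log2 difference of -0.19 ± 0.05. Its adjusted p was 0.9998 (edgeR). The median 95% half-width over the members was 0.14 on the log2 scale in each of these comparisons.

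The interaction tests asked whether the Q140 difference itself depended on the Ccdc82 genotype. With either Ccdc82+/- or Ccdc82-/-, 0 of 57 members passed in edgeR, DESeq2 or limma voom, and 0% of all genes did in edgeR. At an unadjusted p under 0.05 there were 8 members with Ccdc82+/- (14.04%, beside 5.27% of all genes) and 4 with Ccdc82-/- (7.02%, beside 4.30%). The median 95% half-width of an interaction over the members was 0.20 with Ccdc82+/- and 0.21 with Ccdc82-/- on the log2 scale. A test of whether the Q140 difference, averaged over the 3 backgrounds, differed by sex gave 0 of 57 members by edgeR, with RLE size factors and by limma voom, and 0% of all genes by edgeR. At an unadjusted p under 0.05 there were 3, 4 and 5 members, beside 3.15%, 3.22% and 6.55% of all genes.

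Genes that act on the locus were read from a list of 26 regulators, among them CTCF, the cohesin subunits and enzymes of DNA and histone methylation. In Q140 against wild type 5 rose and 4 fell, or 19.2% and 15.4%, close to the 18.2% and 16.5% of all genes, with a median of 0.01. Wiz, a partner of the histone methyltransferases G9a and GLP, rose by 0.27 ± 0.03, and Stag2, a cohesin subunit, by 0.10 ± 0.02. The DNA methyltransferase Dnmt3a had a log2 fold change of -0.25 ± 0.03 and Atf7ip, a partner of the histone methyltransferase SETDB1, -0.17 ± 0.03. On Ccdc82+/- 8 of the 26 rose and 4 fell, where 18.4% of all genes rose and 16.7% fell. On Ccdc82-/- 7 rose and 3 fell, where 17.5% and 15.7% of all genes did so. The 4 named genes passed with the same sign on both backgrounds.

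Among 20 partners and effectors, which link protocadherins to the cytoskeleton and to kinases, 3 rose and 8 fell in Q140 against wild type (15% and 40%, where 18.2% and 16.5% of all genes did so), with a median of -0.03. The WAVE complex subunits Abi1 and Nckap1 had log2 fold changes of -0.27 ± 0.02 and -0.20 ± 0.02, and the kinase Ptk2b -0.18 ± 0.02. Marcks, an actin-binding protein of the membrane, rose by 0.40 ± 0.04. On Ccdc82+/- and on Ccdc82-/-, 2 rose and 9 fell, where 18.4% and 17.5% of all genes rose and 16.7% and 15.7% fell.

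The 11 non-clustered protocadherins listed are single genes that lie outside the locus or beside it. In Q140 against wild type 5 rose and 2 fell (45.5% and 18.2%, where 18.2% and 16.5% of all genes did so). Pcdh20 rose by 1.44 ± 0.09, more than any clustered member, Pcdh19, known from an X-linked epilepsy, by 0.95 ± 0.08, Pcdh10 by 0.52 ± 0.04 and Pcdh11x by 0.42 ± 0.05. On the other backgrounds 5 rose and 0 fell, where 18.4% (Ccdc82+/-) and 17.5% (Ccdc82-/-) of all genes rose and 16.7% and 15.7% fell.

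Other genes within 500 kb of the locus showed no common direction. Of 41 tested, among them Pcdh1 and Pcdh12 of the previous list, 6 rose and 6 fell in Q140 against wild type (14.6% each). Of all genes, 18.2% rose and 16.5% fell. The median over the 41 was 0.03. Among 11 such genes between the first and last member, 0 rose and 2 fell. These were the transcript 3222401L13Rik with a log2 fold change of -0.54 ± 0.09 and Taf7, a subunit of the general transcription factor TFIID, with -0.22 ± 0.06. Hbegf, a growth factor gene before the alpha cluster, had -0.55 ± 0.11, and Ik and Hars, also before it, each rose by 0.12.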

How the data were processed

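Striatal RNA of 47 mice was made into TruSeq stranded libraries, per the labels' protocols. The deposited count table holds raw read counts per gene. The deposited FPKM table holds values scaled for length and depth by the authors and was used here only to recover gene lengths. Per the submitters' processing notes, tools included HTSeq 0.12.3, STAR 2.7.5c and SAMtools 1.10, and builds GRCm38 and mm10; counting settings and strand use were not given in the sources used here. Positions and exons are from GENCODE M21, which held 48349 of 48795 identifiers.

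Counts were analysed with edgeR 4.0.16 in R 4.3.3: filterByExpr on the 6 groups (minimum count 10) left 19193 genes, TMM scaling was used, and a robust quasi-likelihood model with a coefficient per group and a sex term was fitted to all 47 libraries. Adjusted p-values are Benjamini-Hochberg over all genes tested, with a threshold of 0.05, and the tool is edgeR where none is given. The scripts were tested on simulated data. CPM are counts per 1e6 of the TMM-scaled total, divided by private exon length for levels per kb, and 95% intervals are 1.96 SE. The test by sex used a coefficient per genotype and sex on 19714 genes. Limma 3.58.1, DESeq2 1.42.0, Python 3.11.15 and scipy 1.17.1 served alternatives and summaries.

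Members named with values were the 5 C-type members, the 4 with the smallest p per cluster in Q140 against wild type, members that fell, those highest, lowest, first and last in each cluster, and up to 4 genes per list. Pcdha11, Pcdha12, Pcdhb14, Pcdhga12 and Taf7 are outside this rule and were chosen after their values were seen. The members, lists and tests were chosen with earlier results of these data known. The labels number each mouse within a group and sex. The sample names also share 19 other numbers, of which 15 cover 2 or more of 43 mice. Their meaning and whether mice were littermates are not given, and p-values measure the spread between these samples.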

Additional observations from a re-analysis of the deposited data

Results flagged for a closer look

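Of 174 groups examined (26 named members and 3 cluster sums in 6 genotypes), 5 had 1 library apart from the rest by a gap test, in which chance alone flags about 1 group in 20. In Ccdc82-/-, male 2 had the highest Pcdha6, 3.60 CPM against 2.50 to 2.78 in the others, and the highest Pcdhgc5, 143 CPM against 122 to 132. Male 3 of that group had the highest Pcdhga2, 23.5 CPM against 13.6 to 18.1. In Q140 Ccdc82-/-, male 2 had the lowest Pcdha3, 1.63 CPM against 2.32 to 2.77. In Ccdc82+/-, female 1 had the highest gamma sum, 692 CPM against 631 to 653. Without any 1 of these libraries, the calls of Pcdha3, Pcdha6, Pcdhga2 and Pcdhgc5 did not change.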

How the results depend on the processing

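Other scalings, tests, filters, covariates and sample sets were run for each comparison. The SE in Q140 against wild type was largest for members with few counts, Pcdha8 (0.26, median 29.5 counts in wild type) and Pcdhb1 (0.21, 32.5 counts), so differences under their intervals were not detectable. The part of counting error in their spread was not tested. Of 334 counts, medians and shares under another setting, 309 stayed within 1.5 times the count or within 1 SD. The number of members lower in Q140 against wild type, 2, became 0 with total counts alone, 0 in females only and 1 in males only. On Ccdc82+/- the 32 higher and 4 lower became 21 and 2 in females only. On Ccdc82-/- the 5 lower became 2 with total counts alone, 3 with no filter on low counts, 3 with plate column as a factor and 2 in females only. Analyses by sex hold fewer samples. The gamma median, 0.00, -0.01 and 0.04 on the 3 backgrounds, became 0.053, 0.060 and 0.11 with total counts alone, and 0.052 (wild type) and -0.018 (Ccdc82-/-) in females only. The alpha median became 0.33 (Ccdc82+/-) and 0.56 (Ccdc82-/-) in females only and 0.25 (Ccdc82-/-) in males only. Pcdhga12 on Ccdc82-/- turned from 0.14 to -0.047 in females only. The C-type share with the length of all exons was 52.5% (wild type) and 49.0% (Q140) for alpha and 29.0% and 27.9% for gamma, and with no length 54.3%, 50.8%, 35.2% and 33.9%. Within 200 kb in place of 500 kb, the neighbouring genes that fell went from 6, 6 and 5 to 2, 3 and 3. The smaller window lies inside the larger, so a lower count there does not show a smaller share. The cause of the other changes was not tested.

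With 1 library left out, 33 to 34, 31 to 32 and 33 to 37 members rose and 2 to 3, 4 to 5 and 3 to 6 fell on wild type, Ccdc82+/- and Ccdc82-/-. Of the members called with all libraries, 35 of 35, 34 of 36 and 34 of 41 passed in every such fit, and none changed sign. Those lost in at least 1 fit were Pcdhb10 and Pcdhb14 on Ccdc82+/- and Pcdha10, Pcdhga3, Pcdhgb2, Pcdhgb4, Pcdhga9, Pcdhgb6 and Pcdhga12 on Ccdc82-/-. With sex and replicate number as a replicate block, 33, 32 and 36 members rose and 2, 4 and 5 fell, as without it. Deviations of same-numbered libraries correlated above 0.1 in 0 of 8, 2 of 8 and 3 of 7 pairs, with values from -0.42 to 0.55. Without a reference from other pairs, this does not settle whether the replicate numbers pair mice. With the number that sample names share as a random block in limma voom (correlation 0.147), chosen after seeing the data, 33, 32 and 36 rose and 2, 4 and 4 fell, and the call of Pcdhgb4 on Ccdc82-/- was lost.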
